A study of Homo sapiens with 17 samples.

Results

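The levels of 10 mucin genes were followed in RNA-seq of Ishikawa cells, a human endometrial epithelial adenocarcinoma line: MUC1, MUC3A, MUC4, MUC5AC, MUC5B, MUC12, MUC13, MUC15, MUC16 and MUC20. They are 10 of the 60662 genes of the count table and were selected on the counts of MUC5AC, 71 in the ethanol vehicle and 1 in the progesterone (P4) libraries, so no p-value is given for the P4 comparisons, and the calls counted there are descriptions. Of the 10 genes, 6 had enough counts to compare (MUC1, MUC5AC, MUC5B, MUC15, MUC16 and MUC20). The other 4 were too low to measure: MUC3A, MUC12 and MUC13 had 0 or 1 count in every library and MUC4 had 0 to 4.

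Mucins are large glycoproteins whose serine- and threonine-rich repeats carry dense O-linked glycans. The gel-forming mucins MUC5AC and MUC5B are secreted and polymerize into mucus, whereas MUC1, MUC4, MUC13, MUC15 and MUC16 span the cell membrane and form the glycocalyx of epithelial surfaces. In the endometrium the glycocalyx is known as a barrier that an embryo has to pass, and progesterone is the hormone of the phase in which it attaches.

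The 17 libraries fell into 6 groups, and the cells of all groups grew in medium with charcoal-stripped serum. Control cells (3 libraries) received medium alone. EtOH vehicle cells (3 libraries, titled Vehicle Nap EtOH) received 70% ethanol as vehicle, P4 cells (3 libraries, titled Vehicle Nap P4) received Nap vehicle and progesterone, and Nap vehicle cells (2 libraries) received a vehicle that the labels call Nap without saying what it is. The progesterone concentration stands as 10 µg/ml in one source and as 1.0 mg/ml in another. All treatments lasted 24 h. The remaining 6 libraries involved recombinant human PSAT1, an enzyme of serine synthesis, and their labels contradict each other: 3 are titled PSAT1 with a treatment field of PSAT1 alone but a column name that includes P4 (here titled PSAT1), and 3 are titled PSAT1_P4 with a treatment field of PSAT1 and progesterone but a column name without P4 (here titled PSAT1_P4). Which of these groups received progesterone cannot be told apart from the labels, so every value is given under the title. The labels call the libraries biological replicates without saying what was repeated, so p-values measure the spread between these libraries only.

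Libraries held 4999521 to 19704493 counts (median 12964362), and the smallest was EtOH vehicle replicate 1. A count of 3, set as a floor, corresponded to 0.152 to 0.600 counts per 1000000 (CPM). This floor is a chosen level and not a measured limit of detection. Some libraries of the measured members lie below it, among them a titled PSAT1 library with 1 count of MUC5B. The 6 epithelial markers and the 6 Mullerian markers (among them PAX8, SOX17, ESR1 and PGR) were each above 3 counts in every library, as the label of an endometrial epithelial line asks. Summed immune markers (PTPRC, CD3E, CD68, CD14) stayed between 0.153 and 1.55 CPM and summed endothelial markers (PECAM1, CDH5, VWF) between 0.172 and 1.60 CPM. Of 5 stromal markers (COL1A1, COL3A1, DCN, PDGFRA, LUM), 2 to 4 were above 3 counts in every library of a group, and their sum was 65.3 to 158 CPM. In bulk RNA, fewer expressing cells and less RNA per cell cannot be told apart.

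Mucin transcripts are repetitive, and only uniquely aligned reads were counted, so the repeats bear on how much of each gene was measured. The most frequent 60-base stretch in the coding part of the longest GENCODE 29 coding transcript is shown for 4 measured members. It occurred 19 times in MUC1, 10 times in MUC20, 6 times in MUC5AC and 5 times in MUC5B, on the strand of the gene.
MUC1: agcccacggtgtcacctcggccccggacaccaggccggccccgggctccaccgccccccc
MUC20: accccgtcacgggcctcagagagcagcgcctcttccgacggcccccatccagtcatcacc
MUC5AC: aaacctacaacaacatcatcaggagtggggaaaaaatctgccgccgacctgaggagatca
MUC5B: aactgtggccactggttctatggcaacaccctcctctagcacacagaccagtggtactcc
Each transcript was divided into all its windows of 75 bases, the read length. Windows found once were neither repeated in the transcript nor present in a transcript of another gene that does not overlap the member. They made up 99.6% of MUC16, 100.0% of MUC15, 84.7% of MUC5AC, 76.1% of MUC5B, 62.9% of MUC1 and 57.6% of MUC20. Genes that overlap a member in the genome were left out of this search. Among them was MUC20-OT1, which shares 1820 exonic bases with MUC20. Of the 2768 windows of MUC20, 1175 also occurred in its pseudogene copy MUC20P1, and MUC5AC and MUC5B shared 17 windows with each other. Among the members too low to measure, the share was 44.8% for MUC12, 82.4% for MUC4, 99.6% for MUC3A and 100.0% for MUC13. Thus MUC3A and MUC13 were near 0 although nearly all of their windows were found once.

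**Figure D1:**
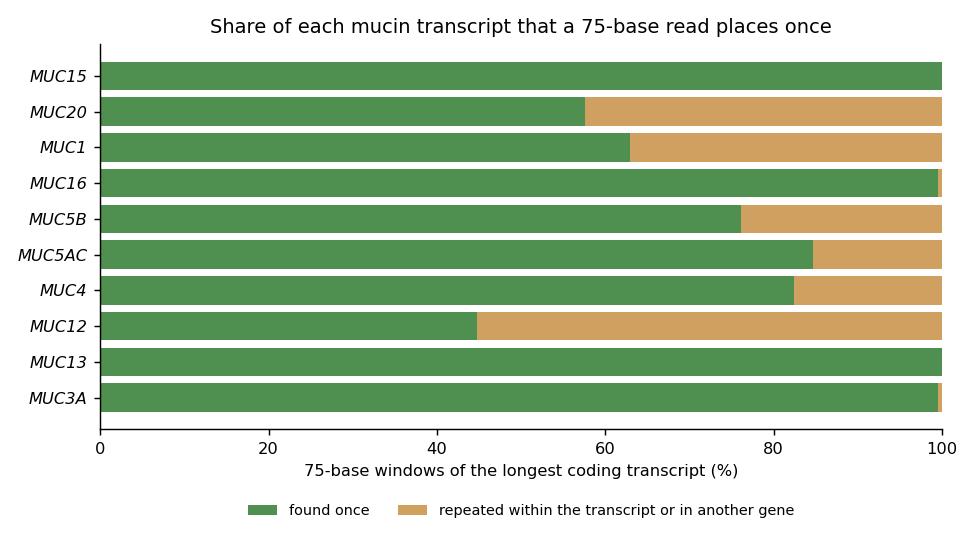
Horizontal bars give, for each of the 10 mucin genes, the percentage of 75-base windows of its longest coding transcript that occur once (green) or are repeated or shared with another gene (tan). Genes that overlap a member in the genome were left out of the search. MUC12 (44.8%), MUC20 (57.6%) and MUC1 (62.9%) have the smallest unique shares, and MUC16 is at 99.6%.

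The members lie on 5 chromosomes (GRCh38, GENCODE 29). MUC5AC (chr11:1157953-1201138, plus strand) and MUC5B (chr11:1223066-1262172, plus strand) are neighbours separated by 21927 bases, and MUC2 lies 47441 bases on the other side of MUC5AC. MUC20 (chr3:195720882-195741123, plus strand) and MUC4 (chr3:195746765-195812277, minus strand) are 5641 bases apart, and MUC3A (chr7:100949555-100968346) and MUC12 (chr7:100969623-101018949) are 1276 bases apart. MUC16 (chr19:8848844-8981342, minus strand), MUC1 (chr1:155185824-155192916, minus strand), MUC15 (chr11:26559033-26572233, minus strand) and MUC13 (chr3:124905442-124953819, minus strand) have no other member next to them. Of the annotated genes that overlap a member, AL713999.1 (MUC1), MUC5B-AS1 and MIR6744 (MUC5B), ANO3 (MUC15), AC254629.1 (MUC3A) and AC105446.1 (MUC12) had at most 2 counts in any library. MUC20-OT1, a long noncoding RNA that shares 1820 exonic bases with MUC20 on the same strand, had 209 to 637.

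Promoter sequences from RefSeq (GRCh38.p14) were found for 6 of the 10 members. Those of MUC16 and MUC1 are shown, since MUC16 had the largest counts of the members and differed between the titled PSAT1 groups, while MUC1 passed the test in no comparison tested. The lines give the 250 bases before the annotated start on the gene's strand, for MUC16 chr19:9065752-9066001 and for MUC1 chr1:155192916-155193165, with capitals for matches on either strand to a motif. The motif of a box bound by Sp1-type factors is GGGCGG, that of the core promoter box near the start is TATAAA, and that of a steroid receptor half-site is AGAACA.
MUC16: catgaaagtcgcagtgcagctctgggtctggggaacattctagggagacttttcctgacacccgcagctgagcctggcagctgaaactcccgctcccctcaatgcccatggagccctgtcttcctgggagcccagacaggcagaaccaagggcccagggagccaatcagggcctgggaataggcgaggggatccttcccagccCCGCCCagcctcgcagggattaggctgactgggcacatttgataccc
MUC1: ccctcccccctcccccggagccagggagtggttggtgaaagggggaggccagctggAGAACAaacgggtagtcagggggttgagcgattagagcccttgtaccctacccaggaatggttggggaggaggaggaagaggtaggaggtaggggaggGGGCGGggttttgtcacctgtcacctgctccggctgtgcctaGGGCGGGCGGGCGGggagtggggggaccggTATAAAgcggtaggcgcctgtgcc
The 300-base window from 250 bases before to 50 bases after the start held the Sp1-type motif once in MUC16. In MUC1 it held 4 Sp1-type motifs, of which 3 overlap, 1 core box and 2 half-sites. The letters TGANTCA, read by AP-1 factors, and the hexamer CACGTG, read by basic helix-loop-helix factors, were not in either of these windows. Over the 35116 promoter windows of the RefSeq table, 45.0% held the Sp1-type motif, 14.8% the half-site, 11.5% the core box, 7.7% the AP-1 letters and 7.3% the hexamer. The RefSeq start of MUC16 used here lies upstream of its GENCODE 29 start, chr19:8981342 on the minus strand. The sequence shown is therefore not next to the gene as annotated there. A second RefSeq start (window chr19:9010360-9010659), also upstream of the GENCODE 29 start, held 1 AP-1 match and none of the other letters searched.

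Measured per kilobase of exon, the mucins of control cells fell into a higher and a lower set. In control libraries MUC20 stood at 0.377 ± 0.146 RPKM (mean ± SD, n = 3), MUC1 at 0.366 ± 0.124, MUC16 at 0.246 ± 0.0770 and MUC15 at 0.246 ± 0.0531, whose ranges overlapped. The gel-forming MUC5B, at 0.0748 ± 0.00657 RPKM, and MUC5AC, at 0.0371 ± 0.00130 RPKM, were below these 4 genes in every control library. In P4 libraries the order of RPKM levels was MUC15 (0.536 ± 0.150), MUC1 (0.282 ± 0.151), MUC20 (0.107 ± 0.0155), MUC16 (0.0578 ± 0.0164), MUC5B (0.0256 ± 0.0182) and MUC5AC (0.00146 ± 0.00253). MUC15 thus stood first in P4 libraries, although its range overlapped that of MUC1. Because RPKM here divides by the whole exon length, levels of MUC1 and MUC20 also include bases that uniquely aligned reads of 75 bases cannot cover.

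**Figure D2:**
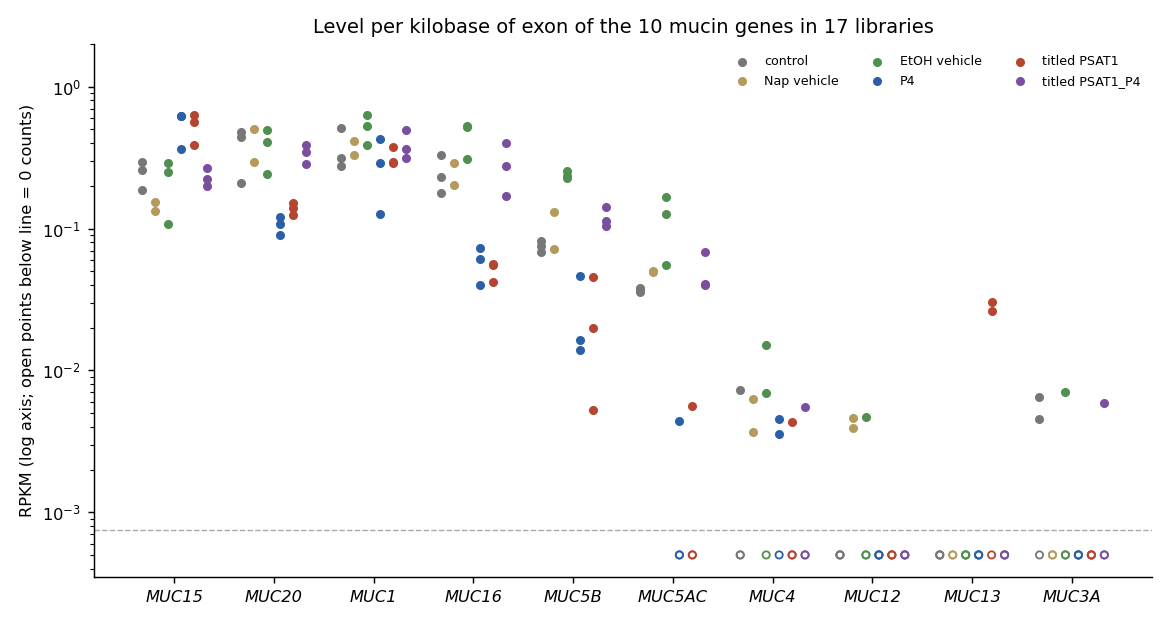
Points give the RPKM level (log axis) of each of the 10 mucin genes in each of 17 libraries, coloured by group, with libraries at 0 counts drawn as open points under the dashed line. MUC4, MUC12, MUC13 and MUC3A sit at or near 0 in all groups, and MUC5AC reaches 0 only in P4 and titled PSAT1 libraries.

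MUC5AC, a gel-forming mucin of goblet-type secretory cells, was the member on which the choice rested. Its counts were 12, 12 and 9 in control libraries, 11 and 13 in Nap vehicle, and 5, 30 and 36 in EtOH vehicle. P4 libraries held 0, 0 and 1 count, titled PSAT1 libraries 1, 0 and 0, and titled PSAT1_P4 libraries 11, 18 and 12. The groups thus split into 4 with counts in every library and 2 with at most 1. On the CPM scale the mean levels ran from 2.02 ± 0.984 in EtOH vehicle (n = 3) through 0.870 ± 0.287 in titled PSAT1_P4 (n = 3), 0.869 ± 0.00521 in Nap vehicle (n = 2) and 0.647 ± 0.0227 in control (n = 3) to 0.0328 ± 0.0568 in titled PSAT1 (n = 3) and 0.0255 ± 0.0441 in P4 (n = 3). Ranges of neighbours in this order overlapped for EtOH vehicle with titled PSAT1_P4, for titled PSAT1_P4 with Nap vehicle, and for titled PSAT1 with P4.

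MUC16, the long membrane mucin that carries the CA125 epitope, had the largest counts of the members. The counts were 145, 278 and 136 in control, 113 and 190 in Nap vehicle, and 71, 315 and 282 in EtOH vehicle, the first from the shallowest library. They were 33, 31 and 23 in P4, 25, 20 and 23 in titled PSAT1, and 116, 263 and 205 in titled PSAT1_P4. On the CPM scale MUC16 was at 10.8 ± 3.38 in control, 10.8 ± 2.73 in Nap vehicle, 19.9 ± 5.41 in EtOH vehicle, 2.53 ± 0.719 in P4, 2.24 ± 0.345 in titled PSAT1 and 12.4 ± 5.08 in titled PSAT1_P4. Every P4 and titled PSAT1 library, at 3.17 CPM or less, was below every library of the other groups, at 7.40 CPM or more.

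MUC5B, the other gel-forming member, had CPM levels of 1.40, 1.51 and 1.27 in control libraries, 1.34 and 2.42 in Nap vehicle, and 4.22, 4.72 and 4.35 in EtOH vehicle. The levels were 0.866, 0.258 and 0.305 CPM in P4, 0.0983, 0.369 and 0.843 in titled PSAT1, and 2.11, 1.94 and 2.65 in titled PSAT1_P4. The EtOH vehicle libraries were above all other libraries, and the P4 and titled PSAT1 libraries were below all others and overlapped each other. MUC20, a membrane-associated mucin, was measured at 1.89, 2.03 and 0.893 CPM in control, 1.26 and 2.15 in Nap vehicle, and 1.73, 1.03 and 2.09 in EtOH vehicle. Its levels were 0.385, 0.516 and 0.458 CPM in P4, 0.590, 0.645 and 0.527 in titled PSAT1, and 1.21, 1.47 and 1.65 in titled PSAT1_P4. The P4 libraries of MUC20 were the lowest, followed by titled PSAT1, and the other groups overlapped. MUC20P1, the pseudogene copy, had 6 counts in P4 and 4 in titled PSAT1 against 39 in control, 22 in EtOH vehicle and 48 in titled PSAT1_P4, summed over 3 libraries each, and 11 in the 2 of Nap vehicle.

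MUC15, a membrane mucin, ran the other way. Its CPM levels were 0.916, 1.04 and 0.670 in control, 0.551 and 0.470 in Nap vehicle, and 0.383, 1.03 and 0.886 in EtOH vehicle. The levels were 2.21, 1.29 and 2.21 CPM in P4, 2.26, 1.38 and 2.00 in titled PSAT1, and 0.957, 0.801 and 0.707 in titled PSAT1_P4. All P4 and titled PSAT1 libraries were above all libraries of the other groups. MUC1, a widely expressed membrane mucin of epithelia, overlapped between groups, at 1.72 ± 0.587 CPM in control, 2.44 ± 0.570 in EtOH vehicle, 1.76 ± 0.299 in Nap vehicle (n = 2), 1.33 ± 0.710 in P4, 1.51 ± 0.227 in titled PSAT1 and 1.84 ± 0.444 in titled PSAT1_P4.

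**Figure D3:**
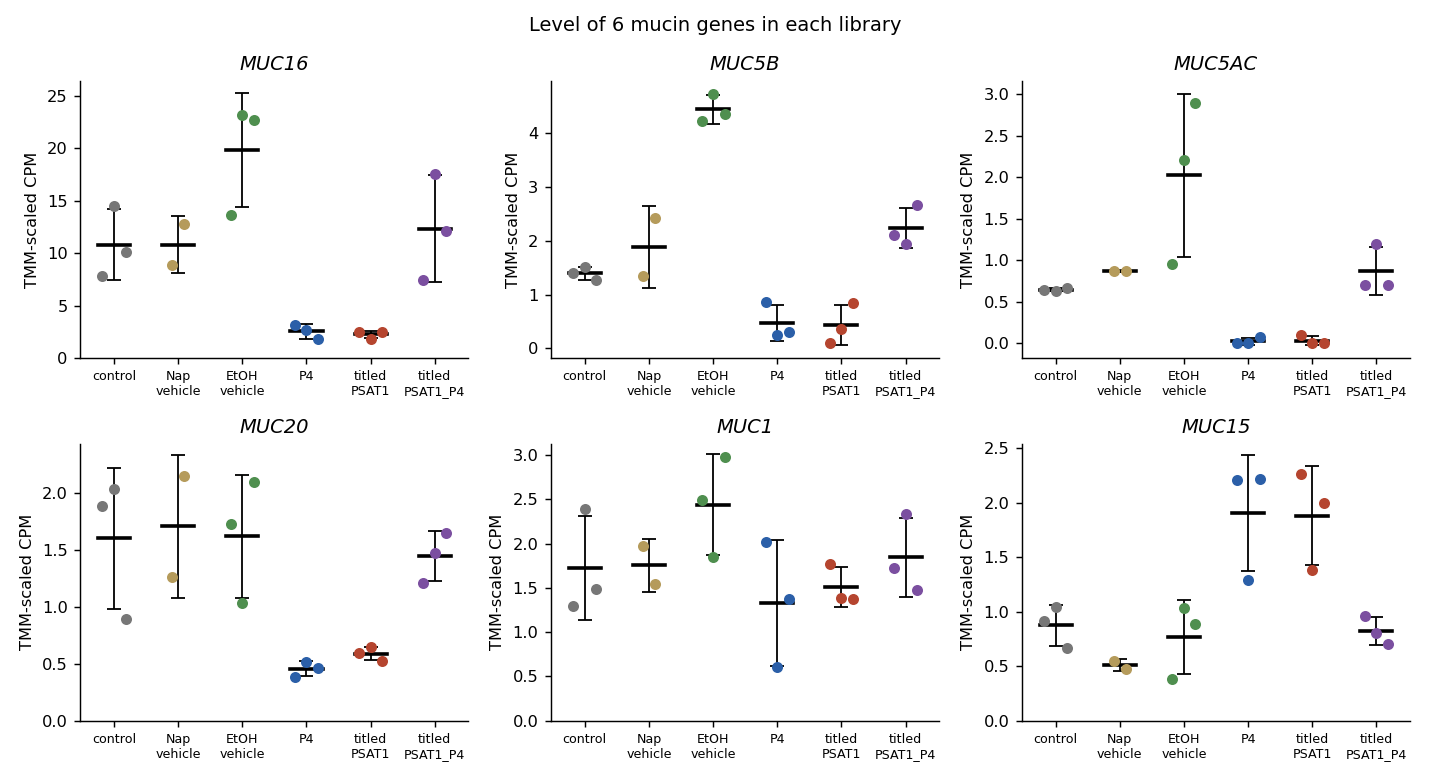
Each panel gives the level of 1 mucin gene in TMM-scaled CPM (linear axis) in each library of the 6 groups. Points are libraries, and black lines and bars are the group mean and SD. MUC16, MUC5B, MUC5AC and MUC20 are lowest in P4 and titled PSAT1 libraries, MUC15 is highest there, and MUC1 overlaps between groups.

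The sum over the 10 mucins was 17.1 ± 4.48 CPM in control, 17.7 ± 3.81 in Nap vehicle, 31.3 ± 6.97 in EtOH vehicle and 19.6 ± 5.64 in titled PSAT1_P4. It was 6.78 ± 1.77 CPM in P4 and 6.78 ± 0.847 in titled PSAT1. MUC16, whose transcript is the longest of the members, made up 52.5% to 69.2% of the sum in libraries of the former 4 groups and 28.0% to 50.0% in those of the latter 2.

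In P4 compared with the EtOH vehicle, the comparison through which the members were chosen, MUC5AC, MUC5B, MUC16 and MUC20 were lower and MUC15 was higher, with no overlap of the groups. Groups without overlap were common here, since 30.7% of all genes tested were higher and 29.6% lower in every P4 library. The log2 fold changes were -5.83 ± 0.71 (SE) for MUC5AC, -3.27 ± 0.34 for MUC5B, -3.06 ± 0.24 for MUC16, -1.79 ± 0.40 for MUC20, 1.13 ± 0.35 for MUC15 and -0.89 ± 0.36 for MUC1. From summed counts, 1 in P4 and 71 in EtOH vehicle, MUC5AC was 80.0-fold lower. The choice of members rested on these counts, so no interval is given. Of the 6 members tested, 1 was called higher and 4 lower at an adjusted p under 0.05 by the quasi-likelihood test of edgeR, where 26.6% of all 16540 genes tested were called higher and 26.5% lower. Nothing is read from these member counts, because the rule used this comparison. The median log2 fold change was -2.42 over the 6 members and -0.013 over all genes tested. Of the 6 members, MUC16 alone reached the level asked by the count filter in each group by itself, and the other 5 passed it through the group in which they were higher. MUC5AC moved to -7.57 without P4 replicate 3, which held the single P4 count, so that this value rests on libraries at 0 and is no bound, and MUC5B moved to -3.94 without P4 replicate 1. For MUC15 the call was lost without P4 replicate 3 or without EtOH vehicle replicate 3 (log2 fold changes 1.01 and 1.17) and with DESeq2, and MUC1 became called lower without P4 replicate 1 (-1.26) and with upper-quartile normalization (-0.97), no low-count filter (-0.87) or all 6 groups in the fit (-0.89).

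Against the control the same P4 libraries differed in the same directions by smaller amounts for the gel-forming members and MUC16. The log2 fold changes were -2.14 for MUC16, -1.62 for MUC5B, -1.86 for MUC20, 1.07 for MUC15 and -0.43 for MUC1. MUC5B moved to -2.29 without P4 replicate 1. MUC5AC did not pass the count filter here, which asked for 0.739 CPM (before TMM scaling) in 3 libraries, a level that 0 control libraries reached. From its summed counts, 1 in P4 and 33 in control, it was 22.6-fold lower, again without an interval. Of 5 members tested, 1 was called higher and 3 lower, beside 26.8% and 28.0% of all genes, and this count too is description. Again MUC16 alone passed the filter in each group by itself.

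The EtOH vehicle was itself compared with the control. Its title also names Nap, so this comparison alone cannot tell ethanol from Nap. Nap vehicle is set against control below. MUC5AC rose by a log2 fold change of 1.77 ± 0.34 and MUC5B by 1.67 ± 0.22 (adjusted p = 1.87e-05, edgeR). Each was higher in 3 of 3 EtOH vehicle libraries than in every control library. So were 19.4% of all genes tested, and 19.6% were lower in every library. The EtOH vehicle counts of MUC5AC had a part in the choice of members, so no p-value is given for it. It passed the count filter through the EtOH vehicle libraries alone, while MUC5B passed it in each group. MUC16 passed the test at 0.93 ± 0.27 (adjusted p = 0.0455), but its groups overlapped. That call was lost with DESeq2 (adjusted p = 0.0676), with upper-quartile normalization (0.0518) and without EtOH vehicle replicate 2 (0.167), EtOH vehicle replicate 3 (0.169) or control replicate 3 (0.100). MUC1 (0.47, adjusted p = 0.243), MUC15 (-0.06) and MUC20 (-0.07) did not pass. MUC1 did pass without control replicate 2, at 0.80. In all, 3 of 6 members tested were called higher and 0 lower (all 3 with an unadjusted p under 0.05, and 2 called by DESeq2), where 11.9% of the genes tested were higher and 10.7% lower. This count includes MUC5AC and is a description. The P4 comparison with the EtOH vehicle therefore set P4 libraries beside a group in which MUC5AC and MUC5B were higher than in control.

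In Nap vehicle compared with control, 0 of 6 members were called by edgeR, 0 had an unadjusted p under 0.05 and 0 were called by DESeq2. The background was 0.00% higher and 0.00% lower among 17166 genes, with 217 genes at an unadjusted p under 0.05 and 1 gene called by DESeq2. The largest member differences were -0.80 for MUC15 and 0.45 for MUC5B on the log2 scale. Among the members tested, both Nap vehicle libraries were below every control library for MUC15 and above every control library for MUC5AC, where 6.43% of all genes tested were lower and 5.81% higher in this way, and each of these 2 members passed the count filter through its higher group alone. With 2 Nap vehicle libraries, the ratios from summed counts had 95% counting intervals from 0.872 to 1.16 for MUC16 and from 0.763 to 2.35 for MUC5AC. These intervals hold counting error only and leave out the spread between libraries. For MUC16 the fit gave a log2 fold change of 0.01 ± 0.26, which ran from -0.28 to 0.30 with replicates left out.

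**Figure D4:**
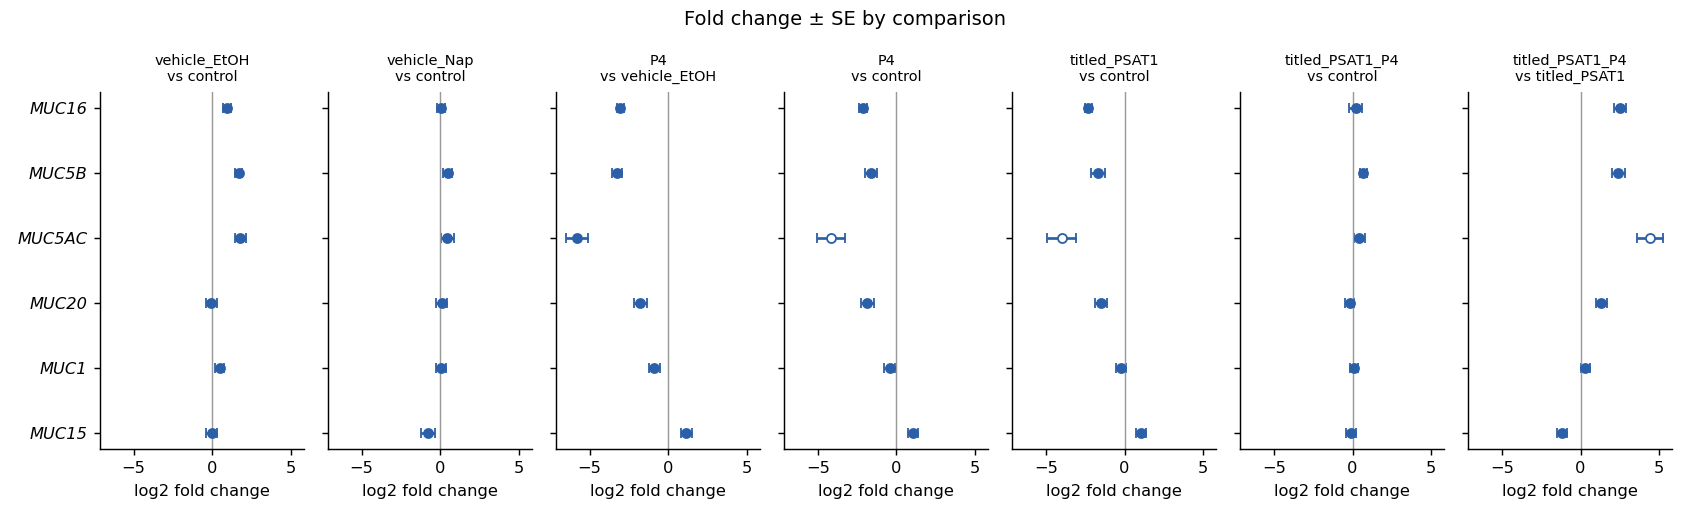
Each panel gives, for 1 comparison, the log2 fold change (x axis) of 6 mucin genes with bars of 1 SE. Open points are MUC5AC values from a fit without the low-count filter, used where the gene did not pass it. No member was called in Nap vehicle or titled PSAT1_P4 against control, where values run from -0.80 (MUC15 in Nap vehicle) to 0.69 (MUC5B in titled PSAT1_P4), while MUC16 is at -2.29 in titled PSAT1 against control.

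The members were chosen with earlier results of these data known, and the choice named a fall of MUC5AC under progesterone, so no p-value is given for MUC5AC in the 2 comparisons of titled PSAT1 libraries. In titled PSAT1 compared with control, MUC16 fell by 2.29 ± 0.23 on the log2 scale (adjusted p = 6.16e-09), MUC5B by 1.71 ± 0.44 (adjusted p = 0.00121) and MUC20 by 1.49 ± 0.38 (adjusted p = 0.00136). MUC15 rose by 1.05 ± 0.32 (adjusted p = 0.00564), a call lost with DESeq2 (adjusted p = 0.0523). MUC1, at -0.22, did not pass. MUC5B and MUC20 passed the count filter through the control libraries alone, with 1 to 8 and 5 to 7 counts in titled PSAT1, and MUC15 through the titled PSAT1 libraries alone, so these genes entered the test through the group in which they were higher. MUC5B moved to -2.52 without titled PSAT1 replicate 3. Of 5 members tested, 1 was called higher and 3 lower, where 30.0% of all genes were higher and 30.2% lower, and nothing is read from this count. MUC5AC was outside the count filter. Without that filter its log2 fold change was -3.99 ± 0.92, and its summed counts of 1 and 33 gave a 19.7-fold lower level.

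In titled PSAT1_P4 compared with control, 0 of 6 members were called by edgeR and 0 by DESeq2, while 1 had an unadjusted p under 0.05. That member was MUC5B, at 0.69 (unadjusted p = 0.00944, adjusted p = 0.836), whose 3 titled PSAT1_P4 libraries were all above the 3 control libraries. Those of MUC5AC (0.43, adjusted p = 0.873) were above them too, and of all genes tested 4.82% were higher and 6.36% lower in every library. Here too the background was 0.00% higher and 0.00% lower, over 17214 genes, of which 1004 had an unadjusted p under 0.05 and 0 were called by DESeq2. For MUC5AC, 41 counts against 33 gave a ratio of 1.34 (95% counting interval 0.824 to 2.18), and for MUC16 584 counts against 559 gave 1.12 (0.999 to 1.26). These intervals too leave out the spread between libraries. The log2 fold change of MUC16 was 0.20 in the fit and ran from -0.14 to 0.49 with replicates left out.

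Between the 2 titled groups, titled PSAT1_P4 libraries had more MUC16, by 2.49 ± 0.37 on the log2 scale (adjusted p = 3.18e-04), more MUC5B, by 2.39 ± 0.41 (adjusted p = 4.58e-05), and more MUC20, by 1.31 ± 0.35 (adjusted p = 0.00298) than titled PSAT1 libraries. MUC15 was lower by a log2 fold change of -1.16 ± 0.31 (adjusted p = 0.00326), and MUC1, at 0.31, did not pass. Each of the 4 called genes differed in the same direction in 3 of 3 libraries, with no overlap, and MUC5AC likewise, where 32.5% of all genes tested were higher and 34.2% lower in every library. MUC5B and MUC20 passed the count filter through titled PSAT1_P4 alone and MUC15 through titled PSAT1 alone, while MUC16 and MUC1 passed it in each group. MUC5B moved to 3.21 without titled PSAT1 replicate 3. Of 5 members tested, 3 were called higher and 1 lower, where 31.6% of all genes were called higher and 30.7% lower. The median log2 fold change was 1.31 over these members and 0.02 over all genes, both given as description. MUC5AC was again outside the count filter, and without it had a log2 fold change of 4.41 ± 0.84. Its counts, 41 against 1, gave a 26.3-fold higher level. The call for MUC20 was lost with DESeq2 (adjusted p = 0.0503). All comparisons with the control share the 3 control libraries, and the comparisons of the titled groups share their libraries, so their values stand side by side and are not independent of one another. Signs refer to the titles, and with the column names in their place each would name the other group as the one with P4.

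MUC20-OT1, which overlaps MUC20, was higher in titled PSAT1_P4 than in titled PSAT1 by 0.51 ± 0.08 (adjusted p = 2.89e-05), and MUC20P1 by 2.88 ± 0.58 (adjusted p = 2.56e-04). MUC20P1 had at most 2 counts in a titled PSAT1 library. It entered the test through titled PSAT1_P4 alone, the group in which it was higher. Since the setting for reads in shared exons is not given in the sources used here and MUC20P1 holds 1175 of the windows of MUC20, values of MUC20 are uncertain to that extent. Markers of ciliated cells (FOXJ1, PIFO, CAPS), which line the endometrium beside secretory cells, were all 3 above 3 counts in every library. Their summed level was 14.0 to 23.4 CPM in P4 and 13.8 to 17.9 in titled PSAT1, but 32.9 to 52.0 in the other 4 groups. FOXJ1 and CAPS each had this order, whereas PIFO overlapped, at 1.72 to 2.12 CPM in P4, 1.28 to 2.74 in titled PSAT1 and 1.13 to 4.21 in control. Summed Mullerian markers were 344 to 391 CPM in P4 and 338 to 359 in titled PSAT1, and 481 to 574 in the others. Within that list PGR, the progesterone receptor, was at 21.7 ± 5.11 CPM in P4, 19.5 ± 1.32 in titled PSAT1 and 111 ± 7.88 in control, whereas SOX17 was at 25.9 ± 1.05, 23.4 ± 4.02 and 27.7 ± 2.52. Summed epithelial markers were 966 to 1140 CPM in P4 and titled PSAT1 libraries and 1150 to 1450 in the other groups. KRT8, KRT18, KRT19 and CLDN4 each had this order. CDH1 had the opposite order, at 279.5 to 334.2 CPM in P4, 306.4 to 338 in titled PSAT1 and 235.5 to 271.5 in control. EPCAM overlapped, at 178.2 to 199.4 CPM in P4 and 172.3 to 183.9 in EtOH vehicle. The part of these markers in the mucin differences was not tested.

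Among 13 other mucin or mucin-type genes, 4 passed the count filter in each comparison. MUC19, a gel-forming mucin gene, was higher in titled PSAT1_P4 than in titled PSAT1 by 1.29 ± 0.38 (adjusted p = 0.00561). It had 3 to 8 counts in titled PSAT1 libraries and entered the test through titled PSAT1_P4 alone. OVGP1 (an oviduct glycoprotein), at -0.64 ± 0.18 (adjusted p = 0.00358), CD164 (endolyn, a sialomucin), at -0.45 ± 0.06 (adjusted p = 1.26e-06), and MCAM (a cell adhesion molecule), at -0.62 ± 0.13 (adjusted p = 2.45e-04), were lower. In P4 against EtOH vehicle the log2 fold changes were -1.71 for MUC19, 0.32 for OVGP1, 0.35 for CD164 and 0.32 for MCAM. In control libraries MUC19 was at 1.62 ± 0.486 CPM and CD164 at 284 ± 29.8 CPM. MUC2, the neighbour of MUC5AC, had 1 to 5 counts summed over a group. Titled PSAT1 against control called MUC19 lower (-1.48) and the other 3 higher (0.95 for OVGP1, 0.27 for CD164 and 0.57 for MCAM), where 30.0% of all genes tested were called higher and 30.2% lower. Neither vehicle comparison nor titled PSAT1_P4 against control called any of the 4.

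The enzymes that build mucin O-glycans were spread in both directions. Of 12 GalNAc transferases tested, which start O-glycans, 6 were called higher and 3 lower in titled PSAT1_P4 than in titled PSAT1, with a list median log2 fold change of 0.31. Over all genes tested in that comparison, 31.6% were called higher and 30.7% lower. GALNT5 (2.70 ± 0.30, adjusted p = 1.63e-07) and GALNT11 (0.74 ± 0.07, adjusted p = 4.10e-08) were higher, and GALNT3 (-1.69 ± 0.10, adjusted p = 3.41e-11) and GALNT10 (-0.44 ± 0.08, adjusted p = 6.10e-05) were lower. GALNT5, with 5 to 7 counts in titled PSAT1 libraries, entered the test through titled PSAT1_P4 alone. Of 13 enzymes and chaperones that extend or cap the glycans, 2 were called higher and 8 lower, with a list median of -0.38. The chaperone C1GALT1C1 (1.53 ± 0.11, adjusted p = 2.80e-10) and the sialyltransferase ST3GAL2 (1.05 ± 0.10, adjusted p = 3.02e-08) were higher, and the branching enzyme GCNT3 (-2.55 ± 0.17, adjusted p = 1.84e-10) and the fucosyltransferase FUT1 (-1.48 ± 0.12, adjusted p = 1.36e-09) were lower. In P4 against EtOH vehicle, the initiating list had 2 called higher and 5 lower of 12 (median -0.32), with GALNT3 at 1.05, GALNT10 at 0.26, GALNT6 at -0.72 and GALNT11 at -0.63. The extending list had 6 higher and 2 lower of 13 (median 0.28), with GCNT3 at 2.87, FUT1 at 1.40, ST3GAL2 at -1.19 and C1GALT1C1 at -1.31. Over all genes tested in P4 against EtOH vehicle, 26.6% were called higher and 26.5% lower.

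Of 17 genes for mucus folding and goblet-type secretory factors, 4 passed the filter between the titled groups. AGR2, a disulfide isomerase that folds mucins in the endoplasmic reticulum, was higher in titled PSAT1_P4 by 1.43 ± 0.22 (adjusted p = 1.44e-05), CREB3L4, a membrane-bound transcription factor, was higher by 0.81 ± 0.13 (adjusted p = 1.52e-05), KLF4, a transcription factor of goblet and other epithelial cells, was lower (-3.22 ± 0.20, adjusted p = 4.13e-11), and FCGBP did not pass. In control libraries AGR2 was at 6.20 ± 2.01 CPM. In P4 against EtOH vehicle KLF4 was at 2.77, AGR2 at -1.73 and FCGBP, a mucus-bound protein, at -0.75 on the log2 scale, and 1 was called higher and 2 lower of 4. The shares over all genes were 26.6% higher and 26.5% lower there, and 31.6% and 30.7% between the titled groups.

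Of 9 tested genes that anchor or shed membrane mucins, 3 were called higher and 5 lower in titled PSAT1_P4 than in titled PSAT1 (median -0.37). SLC9A3R1, a scaffold under the membrane, was higher by 1.14 ± 0.08 (adjusted p = 2.08e-10) and moesin (MSN), which links membrane proteins to actin, by 0.77 ± 0.07 (adjusted p = 4.44e-09). The sheddases ADAM10 (-0.79 ± 0.06, adjusted p = 7.36e-10) and ADAM17 (-0.82 ± 0.06, adjusted p = 1.24e-09) were lower. In P4 against EtOH vehicle 5 were called higher and 2 lower of 9 (median 0.40), with ADAM10 at 0.62, LGALS3, a galectin that binds mucin glycans, at 1.71, SLC9A3R1 at -0.81 and MSN at -0.58. As with the members, P4 values of these lists are descriptions. The shares called over all genes were 31.6% higher and 30.7% lower between the titled groups, and 26.6% and 26.5% in P4 against EtOH vehicle.

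**Figure D5:**
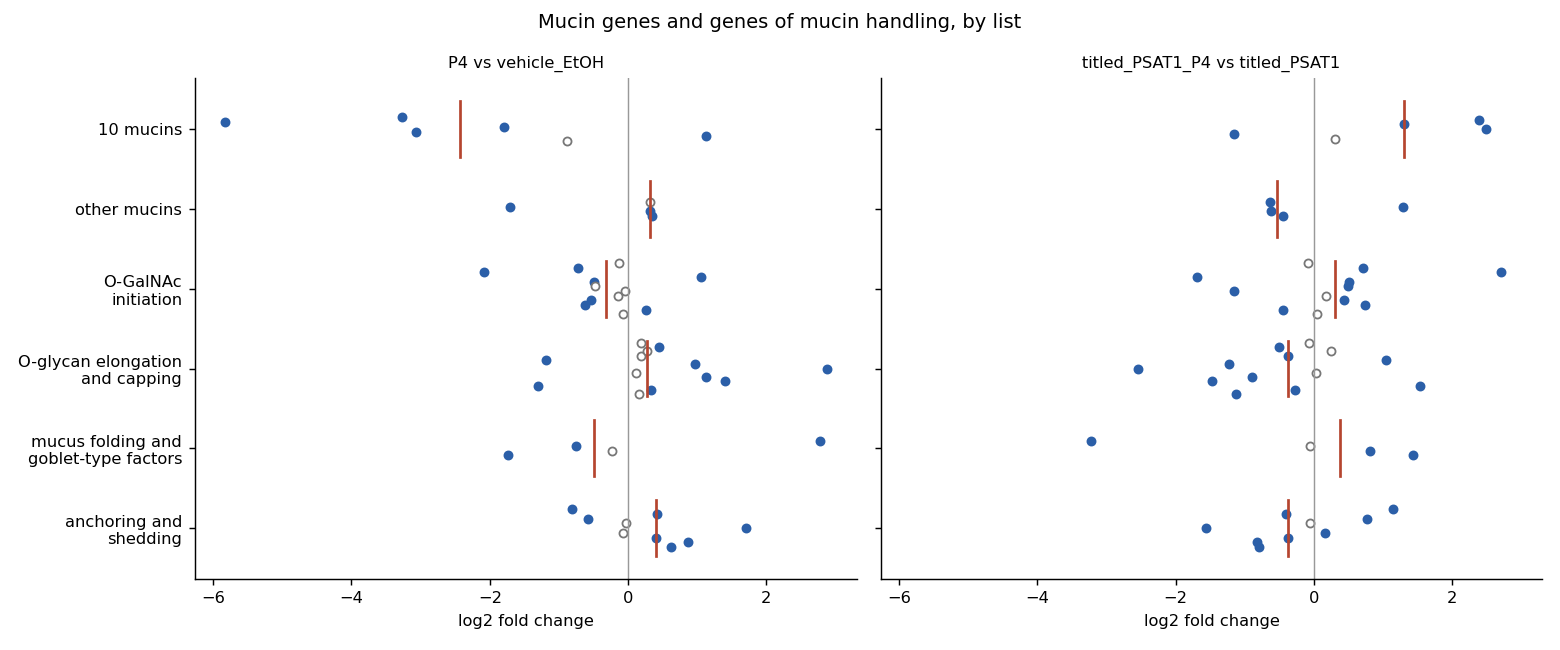
Points give the log2 fold change (x axis) of every tested gene of the 10 mucins and of 5 lists, in P4 against EtOH vehicle (left) and titled PSAT1_P4 against titled PSAT1 (right). Filled points were called at an adjusted p under 0.05, open points were not, and red lines are list medians. The median of the mucins is -2.42 on the left and 1.31 on the right, and each other list holds called genes on both sides of 0.

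Genes whose level most resembled MUC5AC were named from Pearson correlations of log2 CPM (prior count 2) over 17 libraries, which share the groups described above. The 3 highest were FOXRED2 (r = 0.976), MAP1A (0.966) and TBCD (0.966), and the 3 lowest were GHITM (-0.967), HAX1 (-0.969) and MTHFD2P7 (-0.969). Among the members, MUC16 stood at 0.953 with MUC5AC, MUC5B at 0.857, MUC20 at 0.831 and MUC15 at -0.727. As an example of the levels behind them, FOXRED2 was at 43.7 ± 1.78 CPM in control, 56.5 ± 5.49 in EtOH vehicle, 27.9 ± 0.875 in P4, 28.5 ± 0.832 in titled PSAT1 and 48.9 ± 3.34 in titled PSAT1_P4.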

How the data were processed

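Gene counts of 17 RNA-seq libraries were used. The authors deposited raw counts per gene, made with featureCounts and GENCODE 31 from reads that Cutadapt had trimmed, a quality filter had passed and Subread had placed at a single position. Libraries were stranded total RNA, read as single ends of 75 bases. The strand setting, the treatment of reads in shared exons and tool versions are not given in the sources used here. Names and positions came from GENCODE 29, which has the same ID version for 6 of the 10 members.

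Each comparison was fitted to its own groups in edgeR 4.0.16 (R 4.3.3) with filterByExpr (minimum count 10), TMM and the robust quasi-likelihood test, and Benjamini-Hochberg adjustment ran over all genes tested. An adjusted p under 0.05 was called. CPM was scaled over all libraries, and RPKM divided it by exon length. Intervals of count ratios are exact binomial intervals of summed counts and hold counting error only. DESeq2 1.42.0, other normalizations and filters, one fit of all groups, the Nap vehicle as reference, the replicate block and leaving out each replicate were alternatives. The script was tested on simulated data. Replicates of a group differed by more than counting noise (chi-square per degree of freedom 1.54 to 20.63).

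Members and gene lists were chosen with earlier results of these data known. Named genes were all members and tested other mucins, the 2 called genes of smallest adjusted p per direction and list in 2 comparisons (P4 against EtOH vehicle, titled PSAT1_P4 against titled PSAT1), overlapping and neighbouring genes, the 3 most and 3 least correlated with MUC5AC (mean CPM of at least 1) and markers.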

Additional observations from a re-analysis of the deposited data

Results flagged for a closer look

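Under the titles, 5 members moved in opposite directions in P4 against EtOH vehicle and titled PSAT1_P4 against titled PSAT1. In neither comparison did the libraries overlap. Of all genes tested, 30.7% were higher and 29.6% lower in every P4 library than in EtOH vehicle, and 32.5% higher and 34.2% lower in every titled PSAT1_P4 library than in titled PSAT1. The log2 fold change of titled PSAT1_P4 over titled PSAT1, fitted without the low-count filter, was 4.41 for MUC5AC, 2.41 for MUC5B, 2.51 for MUC16, 1.33 for MUC20 and -1.13 for MUC15. The values of P4 over EtOH vehicle in the same kind of fit were -5.81, -3.25, -3.04, -1.77 and 1.15. The difference between the 2 comparisons was not tested. The column names of the titled groups carry the opposite assignment of P4, under which the 5 members would move in the same direction in both. PGR was at 21.7 CPM in P4, 19.5 in titled PSAT1, 110 in titled PSAT1_P4 and 111 in control. MUC16 was at -2.14 in P4 and -2.29 in titled PSAT1 on the log2 scale, each against control. Which label is right was not tested.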

How the results depend on the processing

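The number of mucins called kept within 1.5 times its value under RLE and upper-quartile normalization, DESeq2, no low-count filter, one fit of all 6 groups, Nap vehicle as the reference and each replicate left out. Under at least 10 counts in every library, fewer members could be tested, and the number fell from 5 to 1 for P4 against EtOH vehicle, from 4 to 1 for P4 against control, from 4 to 1 for titled PSAT1 against control, and from 4 to 2 for titled PSAT1_P4 against titled PSAT1. Replicate numbers did not pair the libraries in the comparisons with 3 pairs, where same-numbered libraries correlated in their deviations at -0.116 to 0.182. For Nap vehicle and control, each of the 2 pairs correlated best with its own number (0.256 and 0.320). With the replicate block 6 mucins were called for P4 against EtOH vehicle (MUC1 added), 4 for titled PSAT1_P4 against titled PSAT1, and the other comparisons kept their counts. Over all genes, the block called 48 for Nap vehicle and 29 for titled PSAT1_P4 against control, where the fit without it called 0, and no filter called 3 and 14.

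Members that passed no test changed sign in some settings. With the replicate block, Nap vehicle against control gave -0.08 for MUC1, -0.03 for MUC16 and -0.19 for MUC20. With Nap vehicle as the reference, titled PSAT1_P4 gave 0.00 for MUC5AC and 0.69 for MUC15. Leaving out replicates gave, for EtOH vehicle against control, -0.30 to 0.11 for MUC15 and -0.40 to 0.25 for MUC20. For Nap vehicle against control the ranges were -0.18 to 0.35 for MUC1, -0.06 to 0.79 for MUC5B, -0.28 to 0.30 for MUC16 and -0.39 to 0.39 for MUC20. For titled PSAT1 against control it was -0.42 to 0.11 for MUC1. For titled PSAT1_P4 against control the ranges were -0.12 to 0.42 for MUC1, -0.24 to 0.03 for MUC15, -0.14 to 0.49 for MUC16 and -0.42 to 0.01 for MUC20. The cause was not tested. All genes called in EtOH vehicle against control were 3763, but 2038 without EtOH vehicle replicate 2 and 1908 without replicate 3, and 2580 with DESeq2. Depth limits MUC5AC, whose counts in P4 and titled PSAT1 libraries were 0 or 1, and the 4 mucins too low to measure.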
